A study of Danio rerio with 36 samples.

Results

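The Sox, Pax and Tbx genes encode 3 families of developmental transcription factors, and their DNA methylation was followed through body and sperm of dnmt1 mutant zebrafish and of later wild-type males. A gene was taken as a member when its symbol in the authors' table of differentially methylated intervals of G2 sperm began with sox, pax or tbx and a digit, which gave 49 of the 21016 symbols in that table: 21 sox, 15 pax and 13 tbx genes. The locus of a member ran from the first to the last base of its intervals that lay within 5000 bases of the gene, and 44 of the 49 members (19 sox, 13 pax, 12 tbx) had one, of 20305 gene loci in all. For pax1a, pax1b, sox14, sox1a and tbx2a the nearest interval lay between 7090 and 19477 bases away, and these 5 genes have no value here. Family genes that the authors' table names at no interval, such as sox2, sox3, sox4a and tbx5a, are not members. The values therefore do not describe the whole families. The intervals closest to the distance limit were those of tbx20 at 4775 and pax6a at 4823 bases inside it, and further intervals of tbx18 at 5164 and tbx5b at 5213 bases outside it. Methylation levels entered the rule only through the intervals. Every locus holds at least 1 interval that the authors called between dnmt1 m/m and +/+ sperm of G2, so that contrast is only described. Nearly all intervals were lower in m/m sperm, which needs methylation in +/+ sperm, so high levels in wild-type sperm are partly built into the loci. All gene loci were bounded in the same way, while all windows also include DNA outside gene loci.

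Whole genome bisulfite sequencing was carried out on 18 fish of mixed background, 3 in each of 6 groups. Whole fish at 18 days post fertilization (dpf) were dnmt1 m/m (labelled dnmt1-/-) or dnmt1 +/+. The m/m fish carry a viable hypomorphic missense allele of the maintenance DNA methyltransferase, so some enzyme activity can remain in them. Sperm came from dnmt1 m/m and +/+ males, which the labels place in generation 1 and the study calls G2, and from genotypically wild-type G4 males of the mutant's lineage. G4* males passed impaired larval T cell development to their offspring and are labelled transmitting. G4+ males did not and are labelled non-transmitting. All 3 comparisons of m/m with +/+ or of G4* with G4+ are between fish of 1 tissue and 1 deposited data set. Sequencing batches are not given in the labels used here.

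In vertebrates, most CpG dinucleotides are methylated, and Dnmt1 copies the methyl marks onto the new DNA strand at each replication. Stretches free of methylation typically lie at promoters. Around genes of developmental regulators such as these families they are often longer than elsewhere, and are known as methylation valleys. Sox proteins bind DNA through an HMG box, Pax proteins through a paired domain and Tbx proteins through a T-box. Between them they direct the formation of neural tissue, neural crest, eye, muscle, heart, mesoderm and endoderm.

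The files listed 23946533 CpGs on 25 chromosomes of the danRer10 (GRCz10) genome, of which between 41.1% and 66.3% had a value in a fish. A value is the share of reads that were methylated, given here in percent. The read depth behind each CpG was not used here and is unknown, so no counting interval is given. No pair of fish of 1 data set had equal means at any gene locus with at least 20 shared CpGs. The 44 loci spanned 328 bases to 197 kb (median 11.5 kb, against 13.0 kb over all gene loci), held 18.7 CpGs per kb (all gene loci 19.0) and had a median of 4 intervals, as all gene loci did. The largest was sox6, with 87 intervals over 197 kb, and the smallest sox21b, with 1 interval.

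A locus level is the mean over those CpGs that were measured in every fish compared, and at least 5 were required. In 41 members with enough CpGs shared by all 18 fish, the median locus level was 46.8% in m/m body, 80.7% in +/+ body, 64.8% in G2 m/m sperm, 96.8% in G2 +/+ sperm, 96.3% in G4* sperm and 95.7% in G4+ sperm. Over the 19041 gene loci with such CpGs the medians were 57.1%, 86.9%, 68.4%, 96.8%, 96.3% and 96.3% in the same groups. On these CpGs the medians of the members were thus close to those of all loci in sperm of wild-type genotype. They were lower in both kinds of body and in m/m sperm. For m/m sperm this depended on the CpGs used. On those of the G2 comparison the locus medians were 67.7% in the members and 69.2% over all gene loci. By 1 kb windows they were 70.1% in the members and 69.7% over all windows. Single members departed from the medians. In G4+ sperm, pax9 stood at 24.6%, sox19b at 61.7%, sox19a at 62.2% and tbx20 at 67.6%, while 32 of the 41 members lay above 90%.

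**Figure D1:**
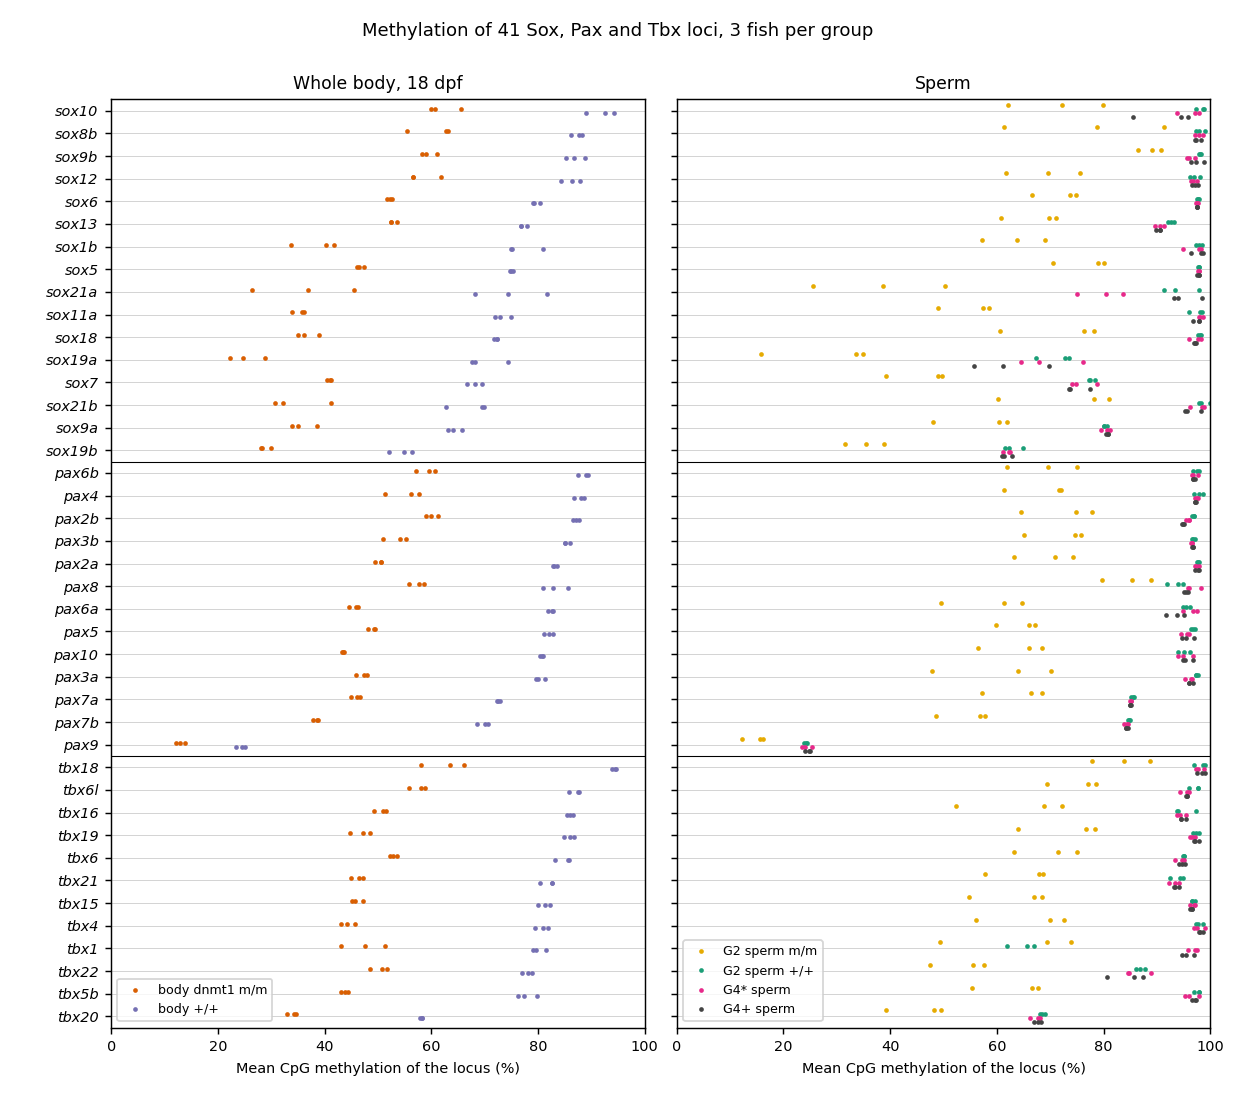
Mean CpG methylation (%) of 41 Sox, Pax and Tbx loci (rows, by family and by level in +/+ body), each point 1 fish, in whole body (left) and sperm (right). In every row the m/m body points lie left of the +/+ body points, and in most rows the G2 +/+, G4* and G4+ points lie together above 90%, with pax9 near 24% in all 3.

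The first question was what reduced Dnmt1 function did to these loci in the body. Of the 41 member loci tested, 40 were called less methylated in m/m than in +/+ body and 0 more methylated, by limma on the log2 odds of the locus level, fitted over 19515 gene loci, with a call wherever the false discovery rate was under 5% and the groups differed by 20 percentage points or more. This rule called 94.9% of all gene loci lower, so the members' count was close to the background. All 41 passed without the minimum difference and had groups that did not overlap, as did 99.8% of all gene loci. The median difference was -31.5 points in the members (47.1% in m/m and 80.1% in +/+ body) and -28.5 points over all gene loci (57.0% and 86.5%). By family the medians were -28.0 points in 16 sox, -31.4 points in 13 pax and -33.5 points in 12 tbx loci. sox17, sox32 and sox4b had too few shared CpGs in body to be tested.

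Among the Sox genes, the SoxB1 members act in early neural tissue. sox19a had levels of 28.9%, 24.6% and 22.3% in m/m body, against 67.7%, 74.5% and 68.3% in +/+ body over 8 CpGs, the largest loss of any member (-44.8 points; limma adjusted p = 8.0e-06). sox1b, on 12 CpGs, had 40.0% ± 4.5 in m/m and 77.9% ± 3.3 in +/+ body (SD, n = 3 each). sox19b, whose maternal product takes part in the start of zygotic transcription, had the smallest loss of the Sox loci, with 25.2%, 26.4% and 25.1% in m/m and 51.8%, 49.9% and 47.4% in +/+ body (-24.1 points). The 3 SoxB1 loci thus spanned both ends of the family. Their m/m and +/+ fish did not overlap, as in all 41 members and in 99.8% of all gene loci.

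SoxE genes act in cartilage and neural crest. sox9a, a regulator of cartilage, had 33.2% ± 1.7 in m/m and 61.3% ± 1.8 in +/+ body, and its duplicate sox9b 59.9% ± 0.9 and 86.4% ± 1.9 (SD, n = 3 each). sox9b thus lay above sox9a in each genotype, and the duplicates lost 26.5 (sox9b) and 28.1 points (sox9a). sox10, needed for pigment cells and peripheral glia, stood at 61.7% ± 3.3 in m/m and 90.4% ± 1.8 in +/+ body. Of the SoxD genes, which have no activation domain of their own and work with SoxE proteins in cartilage, sox5 lost 27.9, sox6 27.2 and sox13 25.1 points, with SDs of at most 0.66 points in either group over 321 to 1448 CpGs.

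Among the Pax genes, the largest loss was at pax4, a pancreatic regulator in the mouse, with 49.8% ± 3.9 in m/m and 86.7% ± 0.4 in +/+ body (-36.9 points). pax6a and pax6b, the duplicates of the eye regulator Pax6, had 44.4% ± 1.1 and 56.8% ± 2.7 in m/m body, against 81.2% ± 1.0 and 87.4% ± 1.4 in +/+ body. pax2a, a gene of the midbrain-hindbrain boundary and the kidney, and pax3a, a gene of neural crest and muscle precursors, each lost 33.5 points. pax5, the B cell regulator, lost 31.4 points and pax8, which acts in thyroid and kidney, 28.1 points. pax7a, which marks muscle stem cells, lost less (-24.7 points), with 42.8% ± 0.7 in m/m and 67.5% ± 0.4 in +/+ body.

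pax9, a gene of the pharyngeal pouches and teeth, was the member that was not called. It had 11.9%, 12.5% and 13.3% in m/m body, against 23.9%, 23.0% and 22.4% in +/+ body over 309 CpGs. The groups did not overlap, and the difference of -10.5 points passed the false discovery rate (limma adjusted p = 8.5e-06) but not the minimum difference.

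Of the Tbx genes, tbx19, a pituitary gene in mammals, lost most, with 47.1% ± 1.8 in m/m and 85.9% ± 1.2 in +/+ body (-38.8 points). tbx21, which encodes the Th1 regulator T-bet, lost 35.6 points, tbx16, required for trunk mesoderm in zebrafish, 34.7, tbx4 34.3, tbx1, a gene of the pharyngeal arches, 32.6 and tbx6, a gene of presomitic mesoderm, 31.8. tbx20, a heart gene, lost least of the family, with 33.3% ± 0.8 in m/m and 56.2% ± 0.5 in +/+ body (-22.9 points). tbx18 had the highest level of any member tested in +/+ body, with 61.9% ± 3.1 in m/m and 94.0% ± 0.3 in +/+ body. The further members lay between these extremes: pax10 and tbx15 lost 36.7 and 35.4 points, tbx5b 35.1, pax3b 31.5, tbx6l 29.2, sox8b 27.4 and sox12 27.3.

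The members with the smallest loss were also those with a low level in +/+ body, so the loci were divided into 1 kb windows. Each window was classed by its level in sperm outside the contrast, as low under 20% and high over 80% in G4+ sperm. Of 604 member windows tested in body, 525 were called lower in m/m (86.9%, against 81.7% of all windows) and 0 higher (0.0062% of all windows). Without the minimum difference 568 were lower (94.0%, against 97.1% of all windows in either direction). The 45 low windows, in 9 members, had medians of 2.79% in m/m and 3.49% in +/+ body. Their differences lay between -11.5 and 0.79 points (median -1.65), and 0 were called, while 4.44% of all low windows of the genome were called lower. A window below 20% in +/+ body cannot fall by 20 points, so the 0 calls do not show that low windows kept their methylation. The 505 high windows had medians of 49.7% in m/m and 84.3% in +/+ body, with a median difference of -30.5 points, and 94.3% of them were called lower. Over all windows of the genome, the low class had a median difference of -1.11 points, and the high class one of -28.6 points with 85.1% called lower.

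Low windows made up a larger share of the members' windows than of all windows. In G4+ sperm, 68 of the 876 member windows with a value (7.76%) were low, against 3.55% of all windows. They lay in 9 members: 31 of 42 windows in pax9, 12 of 85 in pax7a, 10 of 59 in pax7b, 5 of 19 in tbx20, 3 of 8 in sox7, 3 of 14 in tbx22, 2 of 10 in sox9a, 1 of 47 in sox13 and 1 of 3 in sox19b. pax9 held 31 of the 68, and without it the share was 4.44%. The low windows were richer in CpGs, with a median of 26 CpGs listed per kb against 18 in the high windows of the members.

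The longest low stretch was in pax9 (chromosome 17, locus 38289647 to 38345714), where every tested window over the first 32 kb was low in G4+ sperm. Over the 19 of these windows tested in body the median level was 2.69% in m/m and 3.12% in +/+ fish. It was 0.24% in G2 m/m and 0.34% in G2 +/+ sperm over 22 windows, and 0.41% in G4* and 0.30% in G4+ sperm over 31. The remaining part of the locus behaved as other methylated DNA: its 4 high windows tested in body had medians of 44.5% in m/m and 84.6% in +/+ fish, a median difference of -40.7 points, and all 4 were called lower. The largest loss of any member window was here, at 38336000 to 38336999, with 32.4% in m/m and 86.0% in +/+ body.

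pax7b (chromosome 23) had a low run of 10 windows over 10 kb. The 7 of them tested in body had medians of 3.72% in m/m and 6.42% in +/+ fish, while its 32 high windows had 44.6% and 82.3% and were all called lower. pax7a had a low run of 10 windows over 12 kb and 2 further low windows. The 8 of these tested in body had medians of 3.98% in m/m and 5.14% in +/+ fish, and its 33 high windows lost 31.5 points (30 called). tbx20 had a run of 5 low windows over 6 kb. The 4 of them tested in body had medians of 0.64% in m/m and 1.79% in +/+ fish, against a loss of 38.3 points over 9 high windows. sox9a, sox7 and sox19b lost 33.3, 30.7 and 39.5 points over their 5, 3 and 2 high windows. pax9, tbx20, sox19b and pax7a, with small losses as whole loci, thus lost at least 31.5 points (median) in their high windows. The low windows with the highest levels in body were 1 of tbx22, with 16.6% in m/m and 28.1% in +/+ body, and 1 of sox7, with 15.1% and 22.2%.

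**Figure D2:**
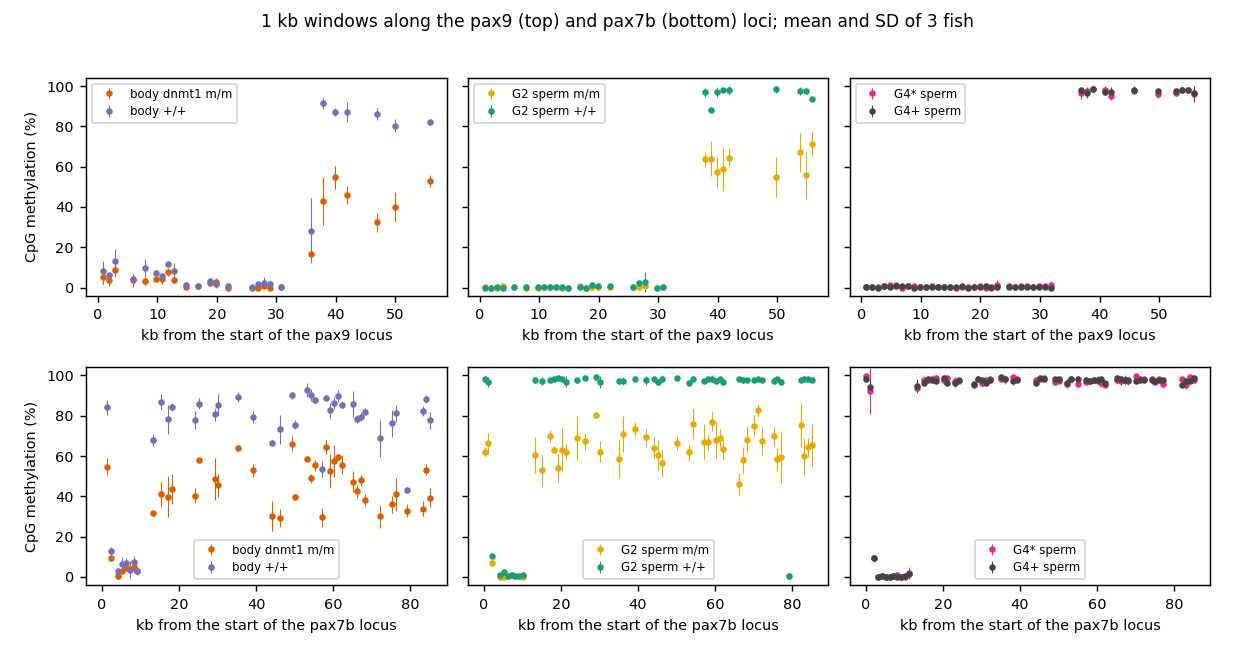
CpG methylation (%) of 1 kb windows along the pax9 (top) and pax7b (bottom) loci by kb from the locus start, in body, G2 sperm and G4 sperm; points are means and bars SDs of 3 fish. The tested windows of the first 32 kb of pax9 and of a 10 kb run of pax7b stay at or below 13.2% in all 6 groups, while the windows beside them are lower in m/m body and m/m sperm. Fewer of these low windows were tested in body and G2 sperm than in G4 sperm. The pax7b window near 79 kb, at 44% in +/+ body, has no point in the G4 panel, as too few of its CpGs were shared by all 6 G4 males.

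The loci were next compared between wild-type tissues, with G4+ sperm set against +/+ body. The fish differ in tissue, age, generation and deposited data set, and these cannot be told apart. The paper gives the +/+ body fish as G2, while the G4+ males descend from an m/m male. The comparison shares its fish with those above and below. Whole body DNA mixes many cell types, so a middle level in all cells and different levels in different cells cannot be told apart either. Of 42 member loci, 5 were called more methylated in G4+ sperm and 0 less, while the same rule called 1.73% of 19620 gene loci higher and 0.0612% lower. All 5 were Sox genes. sox21b had 96.7% ± 1.4 in G4+ sperm and 65.5% ± 4.2 in +/+ body (31.2 points, on 9 CpGs; SD, n = 3 each). sox11a and sox18 had 97.1% ± 0.5 and 97.4% ± 0.1 in G4+ sperm, against 71.8% ± 1.5 and 72.8% ± 0.5 in +/+ body. sox5 differed by 21.8 points over 586 CpGs and sox1b by 21.0 points over 15 CpGs. sox11a is expressed in the developing nervous system and sox18 in endothelium. With at least 20 shared CpGs required, sox21b and sox1b could not be tested and 3 loci were called.

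Without the minimum difference, 37 of the 42 loci were higher in sperm (91.6% of all gene loci passed in either direction). The median difference was 11.1 points in the members and 8.03 points over all gene loci, at nearly equal sperm levels of 95.9% and 96.1%. The 5 loci that did not pass were pax9 (23.3% ± 0.1 in G4+ sperm, 23.9% ± 0.6 in +/+ body), sox10, sox19a, sox32 and tbx22.

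At the scale of 1 kb, 151 of 632 member windows (23.9%) were called more methylated in G4+ sperm than in +/+ body, against 9.02% of all windows, and 3 (0.475%) less, against 0.508%. All windows include those outside gene loci, and the share within all gene loci was not computed. Without the minimum difference 509 were higher and 31 lower, while 73.8% of all windows passed in either direction. The 151 windows lay in 26 of 39 members. sox6 held 47 of them (of 131 tested) and sox5 30 (of 57). Without these 2 genes 74 of 444 windows (16.7%) were called, and without pax9 151 of 602 (25.1%). The share was 35.7% of 255 sox windows, 18.1% of 282 pax windows and 9.47% of 95 tbx windows, so the tbx windows were near the background. pax3a had 10 of 25 windows called, and pax7a 11 of 50.

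In sox5 (chromosome 4) and sox6 (chromosome 7) the sperm was evenly methylated and the body was not. Over the 57 sox5 windows the level lay between 94.9% and 99.5% in G4+ sperm and between 21.7% and 93.4% in +/+ body. Over the 131 sox6 windows it lay between 90.5% and 99.5% in G4+ sperm and between 38.0% and 97.1% in +/+ body. The called windows were spread over the loci, from 18.3 to 92.3 kb of sox5 and from 5.97 to 193 kb of sox6. The largest difference of any member window was in sox5 at 17028000 to 17028999, with 98.5%, 94.4% and 95.4% in G4+ sperm, against 26.0%, 15% and 24% in +/+ body (74.4 points; limma adjusted p = 9.6e-05). In the same window m/m body had 9.49% ± 1.9, against 28.7% ± 5.6 in +/+ body, and G2 m/m sperm 77.6% ± 2.8, against 97.6% ± 0.6 in G2 +/+ sperm (SD, n = 3 each, over the CpGs with a value in each group).

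**Figure D3:**
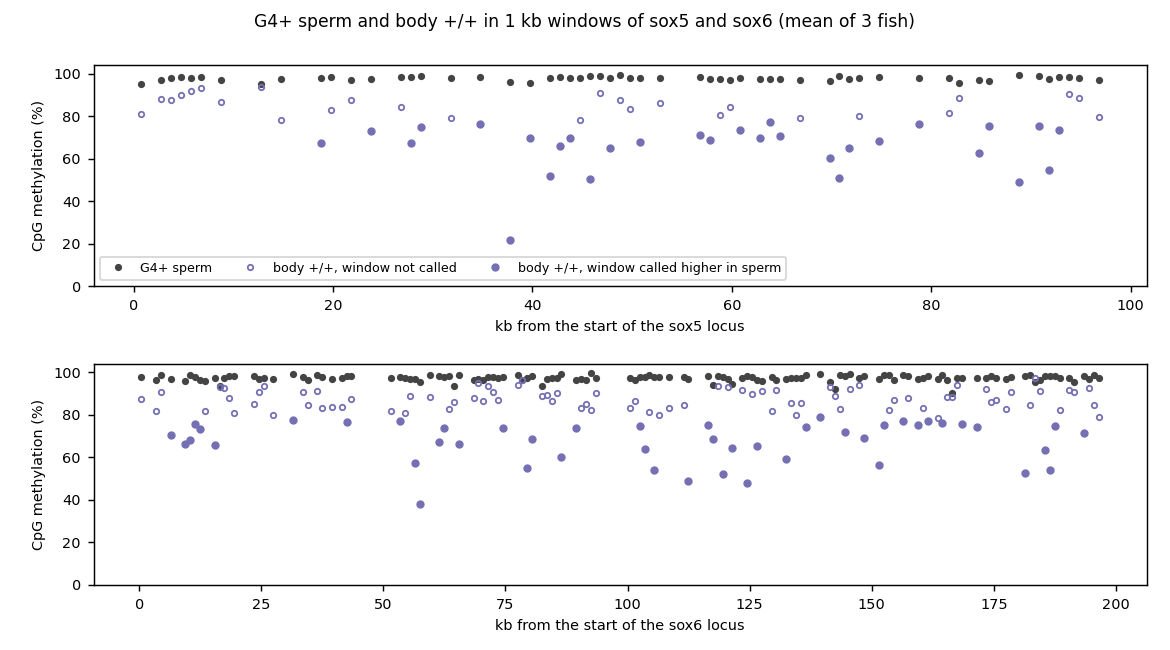
CpG methylation (%) of 1 kb windows along sox5 (top) and sox6 (bottom) by kb from the locus start, means of 3 fish, in G4+ sperm (grey) and +/+ body (purple, filled where the window was called higher in sperm). Sperm stays above 90% throughout, while 30 of 57 sox5 and 47 of 131 sox6 body windows are at least 20 points below it, 1 of them at 21.7%.

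The 3 member windows that were lower in sperm were in pax7b, sox13 and pax2b. The pax7b window (21011000 to 21011999) had 0% in each G4+ male, against 43.1%, 42.4% and 45.0% in +/+ body over 11 CpGs. It also stood at 0% in G4* sperm, at 0.25% in G2 m/m and 0.81% in G2 +/+ sperm, and at 29.5% ± 2.5 in m/m body, so that it was at or near 0 in the sperm of every male and partly methylated in every body. The windows of sox13 and pax2b were not low in all sperm. The sox13 window (chromosome 11, 37566000 to 37566999) reaches past the end of the locus at 37566636. Its values by group cover only the CpGs up to that end. They were 50.4%, 15.3% and 35.3% in G4* and 13.9%, 36.9% and 34.6% in G4+ sperm, and 33.4% ± 14.5 in G2 m/m but 93.8% ± 1.4 in G2 +/+ sperm. The pax2b window (chromosome 12, 45695000 to 45695999) had 59.5%, 97.9% and 97.8% in G4* and 64.2%, 53.9% and 51.0% in G4+ sperm, and 63.9% ± 9.7 in G2 m/m and 96.2% ± 2.0 in G2 +/+ sperm. In +/+ body the sox13 window stood at 66.0% ± 12.7 and the pax2b window at 90.7% ± 1.6, so that both were above the G4+ males and below G2 +/+ sperm in their means.

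The question of the G4 comparison was whether sperm of transmitting males differed from that of non-transmitting males at these loci. Of 44 member loci, 0 were called in either direction by limma, while 0.0198% of 20164 gene loci were called lower and 0.00992% higher. At an unadjusted p under 0.05 there were 4 members (pax2b, pax4, pax6a and sox21a), 9.09% against 6.47% of all gene loci. The median difference was 0.08 points. Groups did not overlap in 7 members (2 lower and 5 higher in G4*), which is 15.9% of them, against 11.4% of all gene loci. With 3 males against 3, the smallest p an exact permutation test can give is 0.1. Of 876 member windows 0 were called (0.0149% of all windows were lower, 0.00734% higher), also 0 loci and 0 windows without the minimum difference (0.0942% of all gene loci and 0.0229% of all windows passed in either direction), and 51 (5.82%) had an unadjusted p under 0.05, against 5.59% of all windows. Of the 243 intervals that the authors listed between G4* and G4+ sperm, 0 lay in a member locus and 0 were assigned to a member. The shortest distances from such an interval to a member locus were 22.9 kb at sox21a and 33.6 kb at tbx19. Both loci are on chromosome 6, which the paper counts among the chromosomes most affected by these intervals. Whether members lay closer to them than other gene loci was not tested.

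The member with the smallest p was sox21a, a SoxB2 gene of the nervous system (chromosome 6, 7258774 to 7259890). It had 87.0%, 84.0% and 80.1% in G4* sperm, against 93.7%, 94.8% and 98.1% in G4+ sperm over 10 CpGs (-11.9 points; limma adjusted p = 0.40). The groups did not overlap, and the difference did not pass the correction. In G2 its level was 44.1% ± 12.7 in m/m and 95% ± 2.3 in +/+ sperm. The single CpGs were uneven. At 4 of the 10 the G4* mean was at least 20 points below the G4+ mean, a limit chosen after the values were seen, and at the other 6 the difference lay between -5.18 and 4.01 points. At 7259185 all 3 males of each group were apart, with 60%, 45.8% and 50% in G4* and 100%, 100% and 94.4% in G4+ sperm. At 7259143 the low mean rested on 1 male, with 91.7%, 92% and 47.1% in G4* and 95.7%, 95.7% and 100% in G4+ sperm. At 7259233 (100%, 64.7% and 58.8% in G4*, against 94.7%, 100% and 100% in G4+ sperm) and at 7258774 (36.4%, 75% and 50% in G4*, against 66.7%, 80% and 92.9% in G4+ sperm) the groups overlapped.

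At other loci single males of a group stood apart. sox32, which specifies endoderm in zebrafish (chromosome 7, 58522543 to 58523129), had 98.1%, 98.7% and 95.3% in G4* sperm, against 50.0%, 70.7% and 97.9% in G4+ sperm over 11 CpGs (24.5 points; adjusted p = 0.84 by limma). The difference was 13.1 points without G4+ male 1 and 37.0 points without G4+ male 3. The 3 G4+ males covered nearly the whole span between the G2 m/m level of 48.7% ± 6.6 and that of G4* sperm. Its neighbour sox17, another endoderm gene on chromosome 7, had 98.8% ± 0.1 in G4* and 97.7% ± 1.3 in G4+ sperm. sox19a had 62.6%, 63.9% and 83.6% in G4* sperm, against 52.4%, 79.9% and 56.1% in G4+ sperm, and the groups overlapped. In most members the spread was far smaller. pax9 had 21.1% ± 0.9 in G4* and 21.4% ± 0.4 in G4+ sperm, sox5 97.6% ± 0.1 and 97.5% ± 0.2, and pax8 97.8% ± 0.1 and 97.4% ± 0.1 (SD, n = 3 each).

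**Figure D4:**
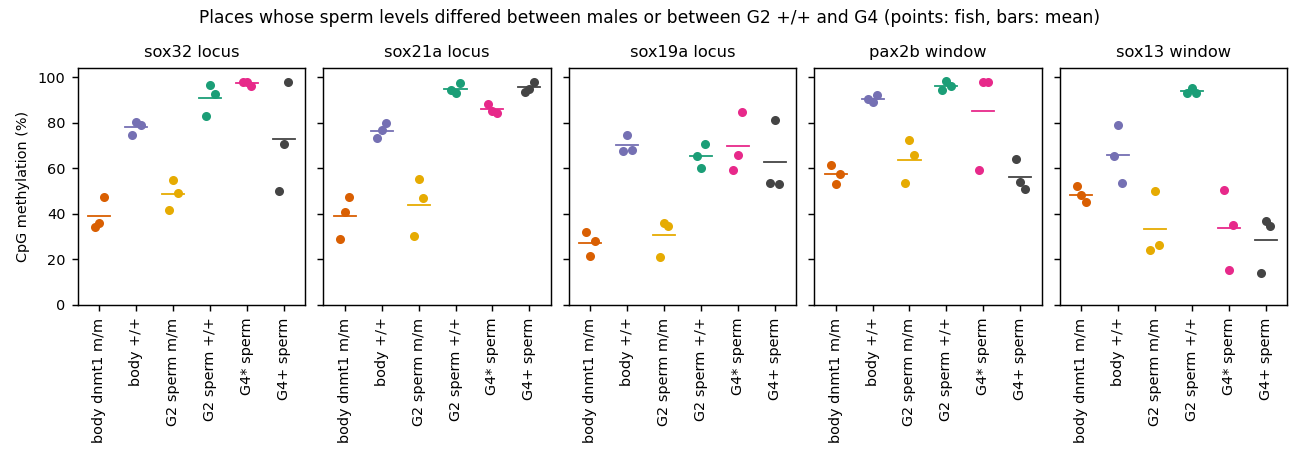
CpG methylation (%) of 3 loci and 2 windows of 1 kb in all 6 groups, the sox13 window only up to the end of its locus. Points are fish and bars group means, over the CpGs measured in all 3 fish of a group. The sox32 locus spreads between 50.0% and 97.9% in G4+ males, the pax2b window is at 59.5% in 1 G4* male and near 98% in the other 2, and the sox13 window averages 33.4% in G2 m/m and 93.8% in G2 +/+ sperm and is at or below 50.4% in all G4 males.

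In G2 sperm, the contrast that bounded the loci, 36 of 44 members were lower in m/m sperm by the call rule, as were 80.5% of all gene loci, with median differences of -26.0 and -25.9 points. By 1 kb windows, 584 of 802 member windows were lower (72.8%, against 71.4% of all windows). These values describe the loci and are no test of them. m/m male 1 had the lowest level of the 3 m/m males at 43 of the 44 members, and without it the count was 27 and the median -21.3 points. The widest difference was at sox21a (-51.2 points) and the narrowest at tbx1 (-5.42 points), the only member whose m/m and +/+ males overlapped (99.8% of all gene loci had groups that did not overlap).

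tbx1 (chromosome 5, 14686892 to 14688808) was unlike the other members in G2 +/+ sperm rather than in m/m sperm. Over the locus, G2 m/m males had 53.0%, 71.8% and 70.5%, and G2 +/+ males 72.6%, 70.2% and 68.8%. G4* and G4+ sperm, by contrast, stood at 97.2% ± 0.7 and 96.2% ± 1.7 (SD, n = 3 each). The CpGs measured in all 3 G2 +/+ males formed a pair of stretches 381 bases apart. The CpG at 14687528, between them, had a value in 1 G2 +/+ male only (30%). Over the first 571 bases, G2 +/+ males had 53.0%, 48.7% and 46.1% on 14 CpGs, each with a mean between 41.9% and 56.5%. Single males varied more, as at 14687211 with 61.1%, 60% and 28.6%. The CpG at 14687199 had 0% in G2 +/+ males 2 and 3 and no value in male 1. In this stretch G4* males had 97.5% ± 0.4 and G4+ males 97.8% ± 0.3. Over the second stretch, the same G2 +/+ males had 98% ± 0.1 on 13 CpGs, G4* males 97.0% ± 0.5 and G4+ males 94.1% ± 4.7. G2 m/m sperm had 66.8% ± 13.4 in the first stretch and 61.0% ± 8.3 in the second, and body had 48.1% ± 5.0 in m/m and 78.8% ± 4.5 in +/+ fish in the first. The division into stretches was made after the values were seen. G2 and G4 sperm belong to different generations and deposited data sets, so no test was made between them.

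**Figure D5:**
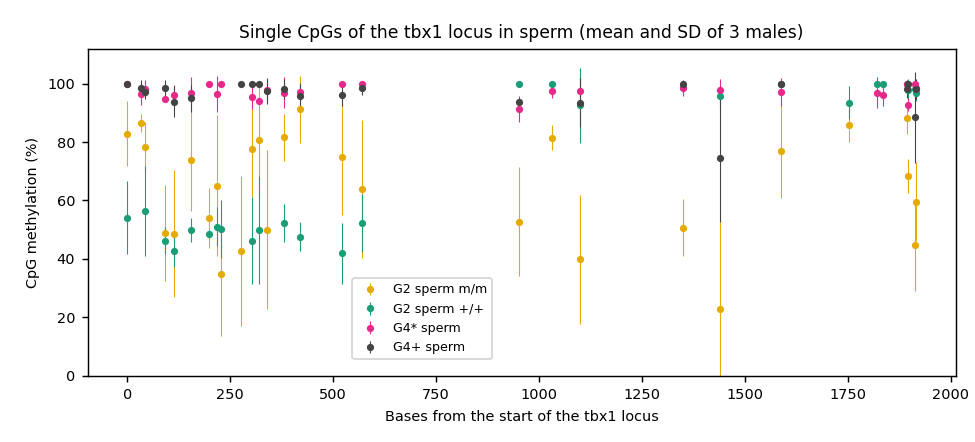
Methylation (%) of single CpGs of the tbx1 locus by distance in bases from the locus start, in sperm of the 4 groups of males; points are means and bars SDs of 3 males. By these means, G2 +/+ males lie between 41.9% and 56.5% over the first 571 bases and at or above 92.6% after the gap. G4* males are at or above 91.4% throughout and G4+ males at or above 93.4% except at 2 CpGs of the second stretch, with 74.7% and 88.4%.

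Related regulators outside the member rule were described in the same way. Of 27 Forkhead loci tested in body, 27 were called lower in m/m (median -26.4 points). The 21 loci of partner regulators included gata4, pou5f3, six3b and the further T-box genes eomesa and tbr1a. Of these 21 loci, 19 were called lower (median -29.9 points), against 40 of 41 members. The same rule called 94.9% of all gene loci lower (median -28.5 points), so these counts were close to the background. Among the windows that compare wild-type tissues, 20.1% of 723 Forkhead and 17.2% of 406 partner windows were called higher in G4+ sperm, against 23.9% of the members' and 9.02% of all windows. In G4* against G4+ sperm, 0 of 30 Forkhead and 0 of 21 partner loci were called, with 3 (10%) and 2 (9.52%) at an unadjusted p under 0.05 by limma, against 6.47% of all gene loci. By windows, 2 of 1055 Forkhead windows (0.19%) were called lower in G4* sperm, against 0 of 612 partner and 0 of 876 member windows and 0.0149% of all windows. Only 1 Hox gene had a locus under the same rule.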

How the data were processed

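The authors trimmed the reads of both libraries of a fish (cutadapt 1.9.1), mapped them to bisulfite-converted danRer10 (methylCtools, BWA 0.7.12), removed duplicates (Picard 1.136), merged the libraries, checked methylation bias (MethylDackel 0.1.7) and extracted methylated and unmethylated reads per CpG (methylCtools). The deposited value of a CpG is a fraction, methylated reads over all reads, with CpGs under 10 reads or with frequent variants set to missing by the authors. A missing value can come from either. Gene names and distances are those of the authors' interval table. The authors' fold changes and p-values were not used, and neither were tables that hold only those.

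Loci (20305) and 1 kb windows were averaged over the CpGs measured in each of the 6 fish compared, at least 5, and fitted together with limma 3.58.1 in R 4.3.3 on log2 odds with an offset of 0.01, with Benjamini-Hochberg adjustment over all loci or all windows. A call needed a false discovery rate under 5% and 20 percentage points. A window belonged to a member when its centre lay in the locus. The fits were tested on simulated data. The column names of G4 fish (control and Pb) were read as G4+ and G4*. The labels do not say that same-numbered fish are related.

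The members and lists were chosen with earlier results of these data known. The text names members with textbook roles and the extremes of each family in body and in G4+ sperm. Of the 3 windows at each end of a comparison, only some are given. Other members were named after their values were seen. Alternatives were other offsets, untransformed ratios, other CpG minimums, every CpG of a fish, medians over CpGs, intervals at distance 0, windows of 500 bases, no minimum difference, a replicate block and leaving out each fish. Sequences were not used here. Whether fish of a group came from separate clutches is not stated, so p-values measure the spread between these fish.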

Additional observations from a re-analysis of the deposited data

How the results depend on the processing

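Of the comparison values recomputed under the alternatives, 254 stayed within the spread between fish or within 1.5 times the count, and 21 did not. Many of the 254 were counts of 0 that stayed at 0, such as the calls between G4* and G4+ sperm. The count of member loci lower in m/m body was 35 with at least 20 CpGs, 42 with every CpG of a fish, 37 with intervals at distance 0, 41 with no minimum difference and 40 under the other alternatives run, with 0 higher throughout. Between G4* and G4+ sperm 0 loci and 0 windows were called under each alternative run. The median body difference was -29.8 points with at least 20 CpGs, -30.5 with every CpG of a fish, -36.8 with medians over CpGs and -32.7 with intervals at distance 0, and between -31.9 and -30.7 without single fish. With at least 10 CpGs per window, which leaves fewer windows, 160 member windows were called lower in m/m body, 257 lower in G2 m/m sperm and 71 higher in G4+ sperm than in +/+ body. In that last comparison, loci called higher numbered 3 with at least 20 CpGs and 37 with no minimum difference (4 to 6 without single fish). Its median was 11.6 points with every CpG, 13.5 with medians over CpGs and 12 with intervals at distance 0, and between 10.7 and 11.7 without single fish. Its windows numbered 509 higher and 31 lower with no minimum difference, and 74 higher without sox5 and sox6, a choice made after seeing the data. The G2 median lay between -28.7 and -21.3 points without single males. Directions turned at sox19b (-3.40 points in G4+ sperm against +/+ body with every CpG of a fish) and at sox32 (-0.35 with every CpG, -4.41 with medians over CpGs, and between -10.5 and 11.9 without single fish). Neither was called in the main setting, and the cause was not tested. sox19b was called with intervals at distance 0 (20.9 points) and tbx1 with medians over CpGs (20 points).

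Same-numbered fish showed little common deviation (correlations over windows between -0.01 and 0.14, below 0.1 for at least 1 number in each comparison), so the numbers were not taken as pairs. The largest correlation was that of number 2 in G4* against G4+ sperm. With a replicate block 40 loci and 524 windows were lower in m/m body, and 5 loci and 151 windows were higher in G4+ sperm than in +/+ body. In no comparison did every fish correlate best with its own number. In G4* against G4+ sperm and in G4+ sperm against +/+ body 2 of the tested fish did, and in each other comparison 1 did.

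Limits: 3 fish per group; missing CpGs differ between comparisons, so the same locus can have slightly different levels in them; loci such as sox19a, sox21b and sox32 rest on 5 to 12 CpGs; read depth is unknown, so small differences at windows are not detectable with confidence, and in G4 sperm the fit over all windows can also miss large ones, so 0 called windows does not show that none differed; nearest-gene names can assign a shared region to 1 of 2 genes.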

Other observations

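The gap between m/m sperm and m/m body differed between members. The lowest levels were those of the same genes in both: pax9 (14.7% in sperm, 13.0% in body), sox19a (28.1%, 25.3%) and sox19b (35.2%, 28.8%). sox9b had 86.5%, 90.7% and 89.1% in G2 m/m sperm, against 98.1% ± 0.2 in G2 +/+ sperm (SD, n = 3), and 59.0%, 61.2% and 58.2% in m/m body, against 87.0% ± 1.8 in +/+ body. pax8 had 84.6% ± 4.6 in G2 m/m sperm and 93.6% ± 1.5 in G2 +/+ sperm, but 57.4% in m/m and 83.2% in +/+ body on average. These 2 loci had the highest levels in m/m sperm of the 41 members measured in all fish, together with tbx18 (83.4%). tbx18 also had the highest level in m/m body (62.6%). sox21a stood at 38.2% ± 12.3 in G2 m/m and 94.2% ± 3.4 in G2 +/+ sperm, and at 36.3% in m/m and 74.8% in +/+ body, so that its m/m level was about as low in sperm as in body. sox5, by contrast, had 76.5% ± 5.2 in G2 m/m sperm and 46.6% in m/m body. The differences between sperm and body of m/m fish were not tested, since G2 sperm had bounded the loci.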
